A study of Mus musculus with 21 samples.

Results

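Drug withdrawal was examined in 6 matched pairs of cultures: pancreatic cancer cells kept under the MEK inhibitor trametinib, termed resistant, and cells of the same lines after 12 passages without the drug, termed P12. The 12 libraries were chosen by their labels alone, as all resistant and all P12 samples of the series, and are 12 of its 21 RNA-seq samples. Each of the 6 lines (#3, #4, #6, #7, #9 and #10) gave 1 library per state, so that every difference below is taken within a line and n is 6 lines. The lines are primary cultures from pancreatic tumours of mice carrying, among their alleles, Ptf1awt/Cre and Trp53loxP/loxP. In these mice Cre under the pancreatic Ptf1a promoter deletes Trp53. The resistant cells had been selected by rising doses and grew in 100 times the IC50 of trametinib. P12 cells descend from them. The 6 parental libraries, from the same lines before any drug, serve only as a reference level. A resistant culture is 1 selected population of its line. By the study's account, which rests on whole genomes of lines #3 and #9, such a population expanded from a single clone. P12 cells are its drug-free descendants. A culture was sequenced once per state, so culture-to-culture variation within a line was not measured.

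Trametinib blocks MEK1 and MEK2, the kinases that phosphorylate ERK, the last kinase of the RAS-RAF-MEK-ERK cascade. Active ERK drives transcription of immediate-early and ETS factors and, with them, of its own inhibitors: Sprouty and Spred proteins act upstream on RAS activation and dual-specificity phosphatases (DUSPs) remove phosphates from ERK itself. The mRNA level of these feedback genes is therefore commonly read as a measure of pathway output.

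The values are normalised read counts, that is, gene-level counts divided by size factors. Differences between states are given as the log2 fold change P12 minus resistant, the mean of the 6 within-line differences of log2(value + 1). This scale understates the change of genes at low counts. The standard error (SE) given with a change comes from the limma fit of all 21 samples. It is not computed from the 6 differences alone. A gene was called at a limma adjusted p below 0.01 and a change of more than 1 on the log2 scale. The depth of the 12 libraries, estimated from the spacing of low values, was 26.1 to 39.0 M reads. A value of 2.41 to 4.07 corresponds to 3 reads, used here as the floor. The summed values were lower in P12 than in resistant cells in 6 of 6 lines (28.6 to 32.3 against 32.9 to 37.1 M). The number of genes above the floor was higher in P12 in 6 of 6 lines (18661 to 20851 against 17908 to 19682). The part of either difference in the calls was not tested. The share of mitochondrial transcripts was 2.87% to 8.73% in resistant and 3.50% to 6.14% in P12 libraries. Of the ductal markers, Krt8 and Spp1 exceeded 100 in all 12 libraries, whereas Epcam was listed at 0 in all 12. Of 12 leukocyte markers 10 were in the table, and Cd68 was above 100 in all 12 libraries. Their summed value was 236 to 2941 in resistant and 221 to 284 in P12 cells, lower in P12 in 5 of 6 lines, and their part in the results was not tested. Ptprc, which marks all leukocytes, ranged from 3.49 to 12.8 in resistant and from 3.02 to 16.5 in P12 cells. Trp53, whose floxed alleles all lines carry, had values of 178 to 367 in resistant and 276 to 475 in P12 cells. The states overlapped for this gene, and no library without the engineered alleles was there for comparison.

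Of 19300 genes tested, 872 were called between P12 and resistant cells (4.52%), of which 486 were higher in P12 (2.52%) and 386 lower (2.00%). The direction was shared by 6 of 6 lines for 445 of the genes called higher and for 347 of those called lower. Many of these changes were large: 369 of the called genes moved by more than 3 on the log2 scale, and 48 genes called higher had resistant values at or below the floor in every line. The values of the 6 P12 and the 6 resistant libraries did not overlap at all for 473 genes (2.45%), 317 of them among the called. The median log2 fold change over all genes tested was 0.02. The count depended on how the spread was estimated. A fit on the 12 resistant and P12 libraries alone called 291 of 19300 genes. Leaving out 1 line called 395 (without #3), 474 (#4), 533 (#6), 526 (#7), 520 (#10) and 805 (#9). With each line left out in turn, all 872 genes kept their sign. Calling the genes on these same lines made this likely in advance. Their call was kept every time by 276 genes. Of 118 called genes followed one by one, 55 kept their call with the 12 libraries alone. Of the 63 others, 49 also lost it when a single line was left out. The remaining 14 lost the call with 12 libraries at limma adjusted p values of 0.0112 to 0.0174, namely Fosl2, Hmga2, Emp1, Sox9, Col4a3, Igfbp2, Rtn1, Nrarp, Mgst2, Gsto1, Cxcl5, Scarb2, Sema3d and Itih2.

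ERK feedback genes rose after withdrawal. Of 11 feedback inhibitors 9 rose and none was called lower, beside 2.52% of all genes called higher, and the median change of the 11 genes was 2.46 against 0.02 over all genes. Spry4, a Sprouty protein that restrains RAS activation below receptor tyrosine kinases, had values of 0 to 7.12 (median 2.9) in resistant and 684 to 2724 (median 1368) in P12 cells. Resistant cells of all lines were thus close to the floor and all P12 cells far above it. Its change of 8.64 ± 0.33 (SE of the limma fit, n = 6 lines) had a limma adjusted p of 5.72e-10. Dusp6, the cytoplasmic phosphatase that acts on ERK, stood at 4.49 to 681 (median 43.4) in resistant and 5098 to 16848 (median 5913) in P12 cells and rose by 7.37 ± 0.57 (limma, adjusted p = 3.08e-06). Its highest resistant value, 681 in line #7, still lay below the lowest P12 value. Dusp4, a nuclear phosphatase, went from 0 to 333 (median 11.6) to 2235 to 8125 (median 3725) (log2 fold change 8.29 ± 1.01, limma, adjusted p = 0.000171), and line #7 again held the highest resistant value, 333. 

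Of the other feedback genes, Spry2 rose from a median of 163 to 1877 and Spred2, a relative that acts on RAS through neurofibromin, from 329 to 3263, with changes of 3.84 ± 0.49 and 3.28 ± 0.38 and no overlap between the states. Spred1 differed less in fold but just as evenly, at 657 to 1441 in resistant and 3243 to 8045 in P12 cells (log2 fold change 2.28 ± 0.23, limma, adjusted p = 3.85e-05). Dusp5 (2.46), Dusp7 (2.01) and Spred3 (1.81) completed the 9 on the log2 scale. Their calls were lost when certain lines were left out, a step that also lowered the number of calls over all genes. Dusp7 lost its call without #3 (adjusted p up to 0.0114), Dusp5 without #6, #7, #9 or #10 (adjusted p up to 0.0319) and Spred3 without #3, #4, #6 or #7 (adjusted p up to 0.0259). The exceptions were Spry1, higher in 6 of 6 lines but just short of the threshold (log2 fold change 1.68 ± 0.39, limma, adjusted p = 0.0109), and Spry3, a little-expressed member with values of 14.2 to 390.3 in resistant and 0.832 to 183 in P12 cells (log2 fold change -2.11 ± 0.68, limma, adjusted p = 0.0538). In parental cells Spry4 ranged from 619 to 1378 and Dusp6 from 5249 to 9449, and the P12 values exceeded that range most in line #7 (2724 for Spry4 and 16848 for Dusp6).

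**Figure D1:**
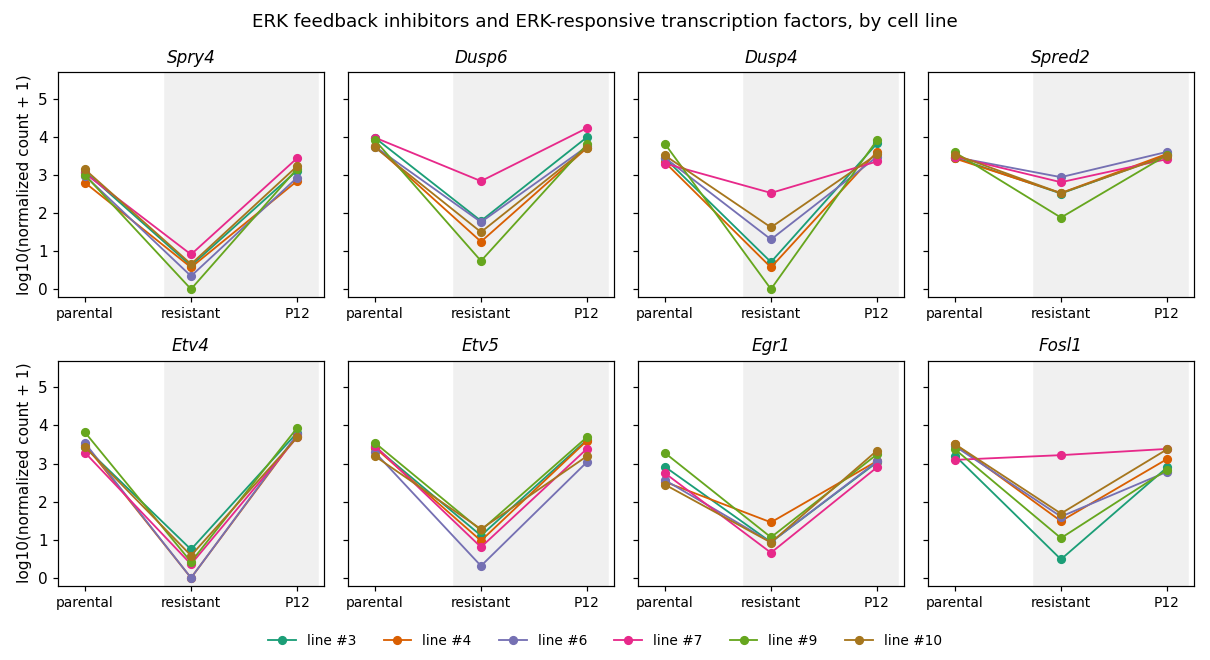
Normalised read counts, as log10(value + 1), of 4 feedback inhibitors (top) and 4 transcription factors (bottom) in parental, resistant and P12 cells; each coloured line is 1 cell line and the shaded area holds the states compared here. In every panel all lines climb from resistant to P12, and line #7 starts from the highest resistant value for Dusp6, Dusp4 and Fosl1 (1659 for Fosl1).

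Transcription factors downstream of ERK rose as well. Of 15 in the list 8 were called higher and 1 lower, beside 2.52% and 2.00% of all genes, with a median change of 1.96. Etv4, a PEA3-family ETS factor at chr11:101769742-101785371, minus strand (GRCm38), gave the largest rise of all genes with a shared direction and at least 100 counts: 0 to 4.58 (median 1.45) in resistant against 4827 to 8573 (median 5613) in P12 cells, a change of 11.35 ± 0.34 (limma, adjusted p = 3.94e-11). In resistant cells Etv4 was near the floor in every line, so the size of the fold depends on the pseudocount. Its paralogue Etv5 moved from 1.06 to 18 (median 10.2) to 1099 to 4954 (median 3221) (log2 fold change 8.20 ± 0.34, limma, adjusted p = 1.31e-09). The third member, Etv1, moved from 3.3 to 16.1 (median 11.4) to 55 to 2666 (median 361) (log2 fold change 5.49 ± 0.91, limma, adjusted p = 0.00143). The P12 level of Etv1 was uneven, from 55 in line #7 to 2666 in line #3, and in 6 of 6 lines it was above the parental level of the line. 

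The zinc-finger immediate-early factor Egr1 stood at 3.57 to 27.7 (median 7.62) in resistant and 795 to 2191 (median 1146) in P12 cells and rose by 7.01 ± 0.42 (limma, adjusted p = 1.96e-07). For Egr3 all resistant libraries were at or below the floor (0 to 1.08) while P12 values were 39.9 to 2199.8 (median 127), at least 199-fold higher on average against the mean floor of the resistant libraries and at least 109-fold without line #9. Egr2 stayed scarce at 0 to 4.01 in resistant and 6.22 to 154 in P12 cells (log2 fold change 4.64 ± 0.81, limma, adjusted p = 0.00196) and lost its call without #3 or #4 (adjusted p up to 0.0167). Myc, whose protein ERK stabilises, showed no called change in mRNA: 437 to 15626 (median 3585) in resistant and 1769 to 11177 (median 5922) in P12 cells, with a log2 fold change of 0.69 (95% interval -0.16 to 1.53) and a limma adjusted p of 0.287.

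AP-1, the dimer of FOS and JUN family proteins that binds the motif TGANTCA, had calls in both directions. Of 18 subunits and relatives tested, 2 rose and 2 fell, beside 2.52% and 2.00% of all genes. Fosl1, which encodes FRA-1, rose from 2.07 to 1659 (median 34.7) to 606 to 2418 (median 1046), a change of 4.90 ± 0.85 (limma, adjusted p = 0.00187). Line #7 was an exception in size, at 1659 in resistant and 2418 in P12 cells, and the states overlapped because of it. Fosl2, which encodes FRA-2, moved the other way, from 5185 to 12718 (median 9803) to 742 to 5563 (median 2121), and fell by 2.10 ± 0.30 (limma, adjusted p = 0.00051) in 6 of 6 lines. Fosb rose (1.74 ± 0.38, limma, adjusted p = 0.0072) and the stress-induced Atf3 fell (-2.04 ± 0.45, limma, adjusted p = 0.0077). Jun had values of 1465 to 4359 and 354 to 3381 and a limma adjusted p of 0.215. Fosl1 lost its call without #3, #4, #9 or #10 (adjusted p up to 0.0139), Fosb without #3, #4, #7, #9 or #10 (adjusted p up to 0.0433) and Atf3 without #4, #6, #7, #9 or #10 (adjusted p up to 0.0467).

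Promoters of the called genes were searched for this motif. RefSeq promoter windows (250 bases before to 50 after a start, GRCm38.p6) were found for 12394 of the genes tested, 327 of the 486 called higher and 269 of the 386 called lower. The letters TGANTCA, which read the same on the opposite strand, occurred in 5.93% of the 15758 windows, in 10.8% of the 446 windows of genes higher in P12 and in 3.42% of the 351 windows of genes lower in P12. The ETS core CCGGAA, sought on both strands, was in 23.6% of all windows, 8.52% of those of genes higher in P12 and 15.1% of those lower. The E-box CACGTG was in 9.13%, 5.83% and 10.8%. A match is a run of letters, not a bound site. Shown are the windows of the 3 genes with the largest rise that hold the AP-1 letters. Predicted genes were left out, and 6 of 6 lines higher and at least 100 counts were required. These genes were chosen after their values were seen. The AP-1 letters are in capitals and begin at -116, -66 and -149 from the start that defines the window. The Mctp1 window lies at an internal start within the gene (chr13:76384535-77031810). Which start gave the rise was not tested.
Ivl (chr3:92573686-92573985, minus strand): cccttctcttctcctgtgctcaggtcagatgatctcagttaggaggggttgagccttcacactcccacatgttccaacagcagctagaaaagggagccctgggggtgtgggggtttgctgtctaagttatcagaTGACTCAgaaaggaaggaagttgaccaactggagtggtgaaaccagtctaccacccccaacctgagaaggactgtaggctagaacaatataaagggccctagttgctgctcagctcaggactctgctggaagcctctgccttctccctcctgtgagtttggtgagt
Mctp1 (chr13:76579347-76579646, plus strand): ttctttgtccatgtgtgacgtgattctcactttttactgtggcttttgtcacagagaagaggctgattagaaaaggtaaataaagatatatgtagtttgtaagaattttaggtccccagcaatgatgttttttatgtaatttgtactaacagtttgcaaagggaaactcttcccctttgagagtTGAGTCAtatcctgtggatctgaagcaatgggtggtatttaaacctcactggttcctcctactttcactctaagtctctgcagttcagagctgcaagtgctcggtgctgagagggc
Itih2 (chr2:10130634-10130933, minus strand): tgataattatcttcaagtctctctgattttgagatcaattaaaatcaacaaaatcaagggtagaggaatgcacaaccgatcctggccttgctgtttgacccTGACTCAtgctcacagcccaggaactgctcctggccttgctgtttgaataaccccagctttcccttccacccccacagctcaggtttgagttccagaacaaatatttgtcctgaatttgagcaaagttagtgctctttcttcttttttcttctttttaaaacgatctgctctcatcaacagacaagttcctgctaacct

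Ivl encodes involucrin, a protein of the cornified envelope, and had values of 0 to 1.2 (median 0) in resistant and 18.4 to 1308 (median 128) in P12 cells (log2 fold change 6.54 ± 0.79, limma, adjusted p = 0.000162). Mctp1, a membrane protein with calcium-binding C2 domains, went from 0 to 3.41 (median 0.598) to 9.31 to 487 (median 140.3) (5.77 ± 0.86, limma, adjusted p = 0.000681). Itih2, a heavy chain of the inter-alpha-trypsin inhibitors that bind hyaluronan, went from 10.7 to 532 (median 51.6) to 648 to 11136 (median 2513) (4.76 ± 0.59, limma, adjusted p = 0.000184). For contrast, both windows of Etv5 and the window of Col4a4, the largest rise and fall with an entry, held none of the 3 motifs. The first Etv5 start and the Col4a4 start are shown, the latter because it spans the 72 bases between Col4a4 and its neighbour Col4a3, which fell together with it.
Etv5 (chr16:22439521-22439820, minus strand): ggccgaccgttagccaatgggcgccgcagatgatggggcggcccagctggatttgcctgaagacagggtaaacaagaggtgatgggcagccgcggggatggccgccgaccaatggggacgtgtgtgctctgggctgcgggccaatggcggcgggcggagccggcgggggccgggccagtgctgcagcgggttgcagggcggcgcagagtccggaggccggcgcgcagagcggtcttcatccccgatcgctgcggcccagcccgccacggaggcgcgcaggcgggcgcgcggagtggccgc
Col4a4 (chr1:82586800-82587099, minus strand): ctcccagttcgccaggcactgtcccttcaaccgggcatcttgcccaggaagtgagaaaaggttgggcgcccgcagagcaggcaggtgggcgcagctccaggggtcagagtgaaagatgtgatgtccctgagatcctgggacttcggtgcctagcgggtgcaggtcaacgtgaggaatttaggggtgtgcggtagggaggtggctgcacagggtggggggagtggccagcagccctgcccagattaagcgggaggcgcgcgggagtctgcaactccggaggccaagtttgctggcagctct

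Other genes known to depend on MEK were called in part. Of 19 tested, 6 rose and 1 fell (median 0.52), beside 2.52% and 2.00% of all genes. With the 12 libraries alone 2 were called. Hmga2, an architectural chromatin protein, went from 6.79 to 1359 (median 67.7) to 5054 to 25993 (median 8753) and rose by 6.88 ± 1.01 (limma, adjusted p = 0.000656, 0.0118 with 12 libraries), with 1359 in the resistant cells of line #7. Phlda1, an early ERK target, rose from 239 to 644 to 989 to 2505 and the tetraspan membrane protein Emp1 from 2883 to 10458 to 13158 to 63614, with changes of 2.22 ± 0.32 and 2.44 ± 0.33 and no overlap for either. Ccnd1, cyclin D1, had a median of 4852 in resistant and 16105 in P12 cells (log2 fold change 2.01 ± 0.42, limma, adjusted p = 0.00642). Line #6 did not follow, at 10806 and 10789, and the call was lost without #3, #4, #7, #9 or #10 (adjusted p up to 0.0317). Kcnn4, a calcium-activated potassium channel, rose by 4.83 ± 0.77 (limma, adjusted p = 0.00104, lost without #3 (adjusted p up to 0.0101)). The matricellular protein tenascin C, Tnc, fell in 6 of 6 lines by 2.38 ± 0.44 (limma, adjusted p = 0.00275) and lost its call without #3, #6 or #10 (adjusted p up to 0.0176). 

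For the cascade itself, none of 22 genes for RAS, RAF, MEK, ERK and their scaffolds was called, beside 4.52% of all genes. Their median change was 0.10. At the receptor level the calls were few and mixed. Of 28 receptor tyrosine kinases 1 rose and 2 fell, beside 2.52% and 2.00% of all genes. Axl rose by 1.04 ± 0.16 (limma, adjusted p = 0.000887) in 6 of 6 lines, from 6731 to 18826 to 15424 to 32294. The call was lost without #3 or #9 (adjusted p up to 0.0109). Fgfr3 fell from 397 to 11926 (median 1871) to 18.5 to 1073 (median 227) (log2 fold change -3.56 ± 0.59, limma, adjusted p = 0.00133). Ddr1, a receptor for collagen, fell from 9715 to 39811 (median 31081) to 4119 to 12569.8 (median 7106) (-1.67 ± 0.21, limma, adjusted p = 0.000222). Of 10 ligands of the EGFR family only Areg, amphiregulin, was called, beside 4.52% of all genes. Areg had values of 0 to 70.3 (median 10.2) in resistant and 64 to 2732 (median 369) in P12 cells. Its rise was steep in lines #7, #9 and #10 (862, 651 and 2732) and ended below 100 in lines #3, #4 and #6, and the call was lost without #3, #4, #7, #9 or #10 (adjusted p up to 0.0236).

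**Figure D2:**
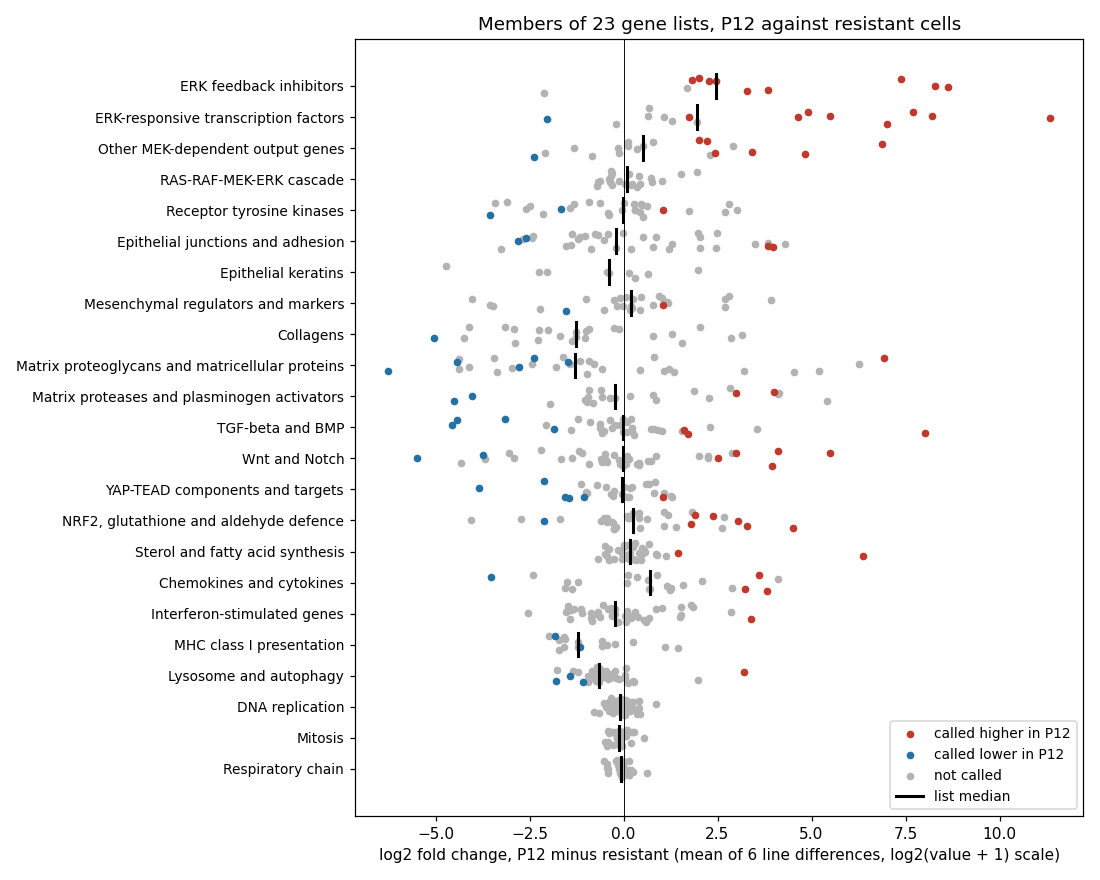
The log2 fold change P12 minus resistant of every tested member of 23 gene lists (1 dot per gene, jittered vertically); red and blue dots were called higher and lower, grey dots were not called, and the black bar is the list median. ERK feedback inhibitors and ERK-responsive factors are shifted to the right (medians 2.46 and 1.96), collagens and matrix proteoglycans to the left (-1.25 and -1.29), and replication, mitosis and respiratory chain genes lie close to 0 with no call.

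The falls included genes for basement membrane chains, membrane proteins and transcription factors. By the rule for large changes (called, same direction in 6 of 6 lines, at least 100 counts on average in the higher state, met by 309 genes that were lower), the largest fall was Col4a4, a chain of the type IV collagen network of specialised basement membranes. It stood at 17.9 to 8569.8 (median 3262) in resistant cells and at 0 to 3.84 (median 3.06), around the floor, in P12 cells, a fall of 8.60 ± 0.78 (limma, adjusted p = 1.93e-05). The lowest resistant value, 17.9 in line #9, was still above all P12 values. Its partner chain Col4a3, head to head with it on chromosome 1 (Col4a3 at chr1:82586921-82722059, plus strand, Col4a4 at chr1:82448423-82586849, minus strand), moved in parallel from 4.41 to 3028 (median 1004) to 0.608 to 19.9 (median 5) and fell by 6.59 ± 1.02 (limma, adjusted p = 0.000853, 0.0154 with 12 libraries), with line #9 at 4.41 in the resistant state. Fras1, a matrix protein under epithelia, fell by 6.32 ± 1.17 (limma, adjusted p = 0.00286), but lost its call without #3, #4, #7 or #10 (adjusted p up to 0.0223).

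Npr3, the clearance receptor for natriuretic peptides, ranged widely in resistant cells, from 309 in line #3 to 64679 in line #9, and was 3.07 to 327 (median 23.8) in P12 cells. It dropped within every line, by 7.12 ± 0.67 on average (limma, adjusted p = 2.62e-05). The membrane peptidase neprilysin, Mme, went from 1702 to 16266 (median 3929.5) to 1.91 to 277 (median 67.3) without overlap (-6.50 ± 0.84, limma, adjusted p = 0.000242). A pair of transcription factor genes had low values off the drug. Sox8, a SOXE factor, fell from 53.5 to 1439 (median 585) to 0 to 6.84 (median 1.4) (-7.03 ± 0.75, limma, adjusted p = 6.64e-05). Pou3f1, a POU factor, fell from 48.8 to 4058 (median 611) to 0 to 224 (median 3.96) (-6.07 ± 0.63, limma, adjusted p = 5.38e-05). Rtn1, a reticulon of the endoplasmic reticulum, was at or below the floor in all P12 libraries and at least 227-fold lower there on average than in resistant cells (0.99 to 2586 (median 427)), or at least 98.9-fold without line #4. The resistant cells of line #9 were at 0.99, and the call was lost with 12 libraries (limma, adjusted p = 0.0128). For Sox8, Pou3f1 and Rtn1 parental values were at most 4.98, 44.3 and 1.8.

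Igfbp2, which binds insulin-like growth factors, fell by 6.86 ± 1.03 (limma, adjusted p = 0.000736, 0.0113 with 12 libraries), from 218 to 52847 (median 13654) to 7.58 to 1252 (median 81), and line #3 kept the highest P12 value, 1252. The growth factor gene Fgf18 fell from 524 to 1554 to 0 to 277 (-5.85 ± 0.85, limma, adjusted p = 0.000578). The adenylyl cyclase gene Adcy1 fell from 137 to 2212 to 1.29 to 299.8 (-5.65 ± 0.71, limma, adjusted p = 0.0002). Other genes of the rule lost their call when certain lines were left out. Tek, the angiopoietin receptor, fell by 5.84 ± 1.02 and lost its limma call without #3 or #10 (adjusted p up to 0.0127). The potassium channel Kcnk1 fell by 5.73 ± 1.13 and lost it without #3, #4, #6 or #10 (adjusted p up to 0.0234). Upk3b, a uroplakin, fell by 5.69 ± 1.19 and lost it without #3, #4, #7 or #10 (adjusted p up to 0.0453). Upk3b was among the most abundant of the falls, at 228872 in resistant and 24475 in P12 cells of line #6, but at only 6.25 and 2.42 in line #9.

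**Figure D3:**
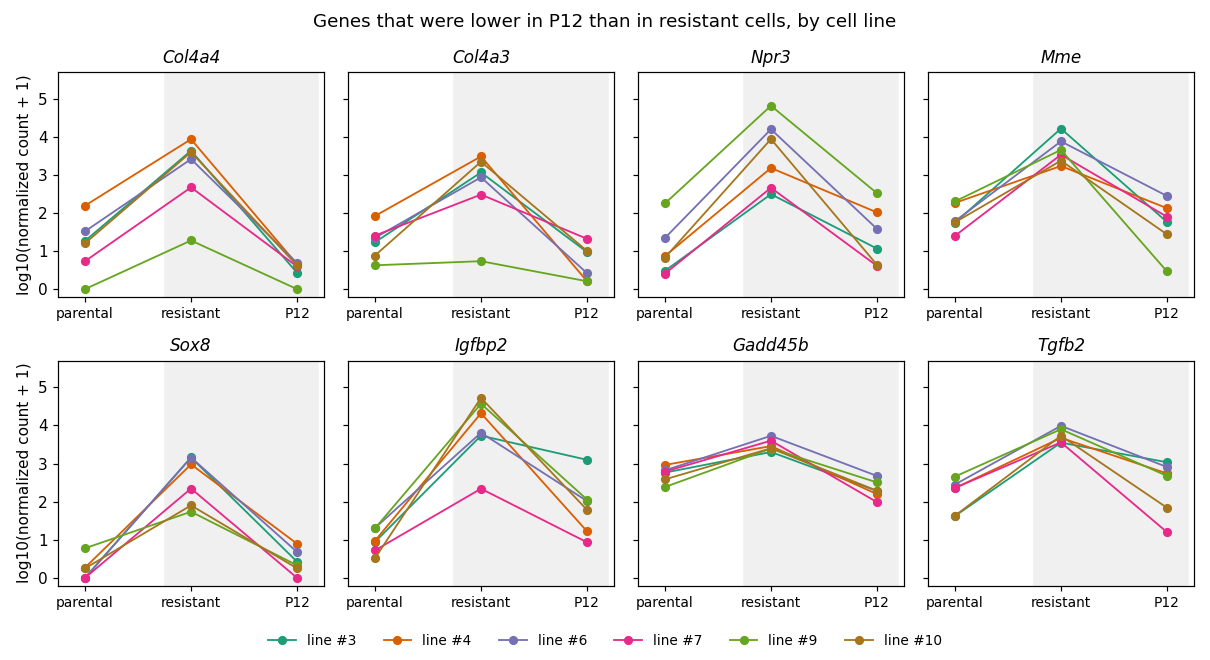
Normalised read counts, as log10(value + 1), of 8 genes lower in P12 than in resistant cells, in parental, resistant and P12 cells of the 6 lines (1 coloured line each; the shaded area holds the states compared here). All lines drop from resistant to P12 in every panel, and Col4a4, Sox8, Mme, Gadd45b and Tgfb2 do so without overlap between the states.

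The lists of matrix proteoglycans and collagens leaned the same way on average. In line #7 the collagen median was 0.21, and in line #4 the proteoglycan median was -0.02. Of 30 proteoglycans and matricellular proteins 5 fell and 1 rose, beside 2.00% and 2.52% of all genes. Their median was -1.29, and 3 were called with the 12 libraries alone. A fixed list of 24 collagens, which does not hold Col4a3 and Col4a4, had 18 members lower on average (median -1.25). Beside 4.52% of all genes called, it held 1 call. This gene, Col12a1, a fibril-associated collagen, fell by 5.04 ± 0.83 (limma, adjusted p = 0.0013), from 1716 to 26313 (median 16699.9) to 12.1 to 2621 (median 471). Sparc, an abundant collagen-binding protein, went from 10522 to 289234 (median 201034) to 1268 to 62164 (median 27897) (-2.78 ± 0.46, limma, adjusted p = 0.00134) and perlecan, Hspg2, from 41426 to 124927 to 16650.3 to 54742 (-1.48 ± 0.25, limma, adjusted p = 0.00148), both in 6 of 6 lines. Decorin, Dcn, dropped in every line but by very different amounts, from 65968 to 20386 in line #6 and from 1424 to 0 in line #7 (-6.26 ± 1.42, limma, adjusted p = 0.00964). Loxl1, which crosslinks elastin, fell by 4.43 ± 0.87. The 23 matrix proteases and plasminogen activators did not lean (median -0.23), with 2 calls in each direction, beside 2.52% higher and 2.00% lower of all genes. The aggrecan-cleaving proteases Adamts5 and Adamts1 fell by 4.51 ± 0.80 and 4.03 ± 0.74, and the metalloproteinases Mmp10 and Mmp19 rose by 4.00 ± 0.90 and 2.98 ± 0.56. Calls were lost without #7 (adjusted p up to 0.0111) for Sparc, #10 (adjusted p up to 0.0103) for Hspg2, #3, #4, #7 or #10 (adjusted p up to 0.0552) for Dcn, #3, #4, #7 or #10 (adjusted p up to 0.0239) for Loxl1, #3, #4 or #10 (adjusted p up to 0.0157) for Adamts5, #3, #4, #6, #7 or #10 (adjusted p up to 0.0146) for Adamts1, #3, #4, #6, #7 or #10 (adjusted p up to 0.0444) for Mmp10 and #3, #4, #6, #7 or #10 (adjusted p up to 0.0169) for Mmp19. Calls in the collagen list numbered 2 without line #3 and 2 without line #9. 

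The fibroblast markers are in part the same genes as these lists, so their lean is not a separate result. The 14 markers include Dcn, Lum and 3 fibrillar collagen genes of the matrix lists. Of the 14, 13 were tested and 1 (Dcn) was called lower, beside 2.00% of all genes. The summed value of the markers was lower in P12 in 6 of 6 lines (272 to 182122 against 2139 to 586566). None of the 14 was at or below the floor in all 12 libraries. The summed value of the ductal markers went the other way, at 72963 to 565099 in P12 against 1982 to 216054 in resistant cells. That sum includes Spp1, whose large rise is given below. Of 10 ductal markers tested, 2 (Spp1 and Sox9) were called higher, beside 2.52% of all genes. Among the 10, 8 had a positive and 2 a negative change (median 0.73). In bulk RNA fewer cells of a type and less RNA per cell cannot be told apart, and the part of either marker list in the matrix result was not tested.

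Spp1 was the one gene called higher among the 30 proteoglycans and matricellular proteins. Osteopontin, its product, is a secreted phosphoprotein that is also listed among the ductal markers. It had values of 148 to 3392 (median 1077) in resistant and 18469 to 351081 (median 80909) in P12 cells (6.94 ± 0.71, limma, adjusted p = 4.65e-05), without overlap. Sox9, the transcription factor of pancreatic ducts, rose from 37.6 to 679 (median 244) to 1002 to 3813 (median 2923) (3.84 ± 0.56, limma, adjusted p = 0.000573), also without overlap. It was the 1 called gene of 18 pancreas and foregut factors tested, beside 4.52% of all genes, and lost its call with 12 libraries (limma, adjusted p = 0.0171). 

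Beyond ERK outputs, the largest rises were varied in kind. They were named by the same rule, which 329 higher genes met. Slco4a1, an organic anion transporter, went from 0 to 141 (median 2.75) to 158 to 16638 (median 3514) (8.09 ± 0.92, limma, adjusted p = 0.000104). Megf10, a receptor for engulfment, rose in 6 of 6 lines from 5.04 to 20.9 (median 12.1) to 471 to 11735 (median 3833) (8.02 ± 0.69, limma, adjusted p = 1.16e-05). Ace, the angiotensin-converting enzyme, rose from 2.22 to 67.8 (median 13) to 436 to 4495 (median 2701) (7.11 ± 0.42, limma, adjusted p = 1.67e-07). P12 values of Megf10 and Ace were above the parental value of the same line in 6 of 6 lines. Prkg2, a cGMP-dependent kinase, rose from 2.48 to 565 (median 23.9) to 2125 to 12166 (median 5918) (7.87 ± 0.84, limma, adjusted p = 6.64e-05), with line #7 highest in both states. Thrb, the thyroid hormone receptor beta, was at or near 0 in 5 resistant libraries and at 84.8 in line #7, against 181 to 735 (median 515) in P12 cells (7.42 ± 0.81, limma, adjusted p = 7.56e-05). 

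Disp2, a relative of the Dispatched transporter, rose from 1.58 to 8.55 (median 5.88) to 129 to 8066 (median 2778) (7.77 ± 0.92, limma, adjusted p = 0.000138) in 6 of 6 lines, but the P12 level was 4570.1 to 8066 in lines #3, #4 and #10 and 129 to 986 in the other 3. The gel-forming mucin Muc5b behaved alike, with 4439, 29530.3 and 22497 in P12 cells of lines #3, #7 and #10 and 214 to 229.9 in the others, against 0 to 49.4 in resistant cells (7.56 ± 0.73, limma, adjusted p = 3.1e-05). Mgp, matrix Gla protein, was at or below 1.05 in 5 resistant lines, and line #9 already held 729 before withdrawal and 17356 after it (7.10 ± 0.96, limma, adjusted p = 0.000328). In 4 of the other 5 lines Mgp reached 105 to 1455 in P12 cells, and in line #10 it reached 11.5. Genes of the classical, gastric-type programme of pancreatic cancer leaned upward (median 1.98, 25 of 28 with a positive change). Of the 28, however, 1 passed the test, beside 4.52% of all genes. This was Spink4, a small secreted peptide, at least 10.3-fold higher in P12 than the resistant floor (2.11 to 91.9 against 0 to 2.84). The call of Spink4 was lost without #3, #6 or #10 (adjusted p up to 0.0218).

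Cell adhesion changed line by line. Cdh1, E-cadherin, was higher in P12 in 6 of 6 lines but missed the threshold (log2 fold change 3.85 ± 0.98, limma, adjusted p = 0.018). Its resistant level ran from 4.01 in line #4 to 16401 in line #7. P12 values were 44 to 18598 (median 2162), below the parental value of the same line in every line. Line #9 had the lowest parental and P12 levels of Cdh1, with 816 in parental, 8.68 in resistant and 44 in P12 cells. Cdh2, N-cadherin, fell by 1.52 ± 0.32 (limma, adjusted p = 0.0065), from 7322 to 29631 (median 19895) to 4372 to 7948 (median 5476), with line #4 as the exception (7322 to 7948) and the call lost without #3, #6, #7 or #10 (adjusted p up to 0.0387). Vim and Zeb1, a mesenchymal filament and a repressor of Cdh1, were not called, with log2 fold changes of 0.44 ± 0.34 and 0.06 ± 0.39. 

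Of 35 genes for junctions and adhesion, 2 rose and 2 fell, beside 2.52% and 2.00% of all genes. A positive change was seen in 16 of the 35. Itga6, an integrin chain of laminin receptors, rose from 77.6 to 3802 (median 1912) to 5899.7 to 33559 (median 18733) (3.84 ± 0.63, limma, adjusted p = 0.00125). Itga2, an integrin chain of collagen receptors, rose by 3.98 ± 0.87 (limma, adjusted p = 0.00762), but not in line #6 (84.8 to 78.6). Dsg2, a desmosomal cadherin, fell by 2.81 ± 0.59 (limma, adjusted p = 0.00602). Cgn, cingulin of tight junctions, fell by 2.60 ± 0.43 (limma, adjusted p = 0.00125), from 1261 to 23700.0 to 217 to 3603. The calls were lost without #7 (adjusted p up to 0.0106) for Itga6, #3, #4, #7, #9 or #10 (adjusted p up to 0.0425) for Itga2, #3, #6, #7 or #9 (adjusted p up to 0.036) for Dsg2 and #3 (adjusted p up to 0.014) for Cgn. The list count of 4 became 1 without line #3, 1 without line #7 and 2 without line #9, where the number of calls over all genes fell as well. Of the 9 keratins tested none was called, beside 4.52% of all genes. Krt8 had values of 544 to 52773 in resistant and 223 to 70202 in P12 cells (0.15 ± 0.44, limma, adjusted p = 0.861), with line #9 lowest in both states. Prss22, a tryptase-family serine protease, rose from 6.11 to 40.3 to 41.7 to 597 (4.09 ± 0.54, limma, adjusted p = 0.000271). It was the only call among 22 epithelial regulators and proteases, beside 4.52% of all genes.

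**Figure D4:**
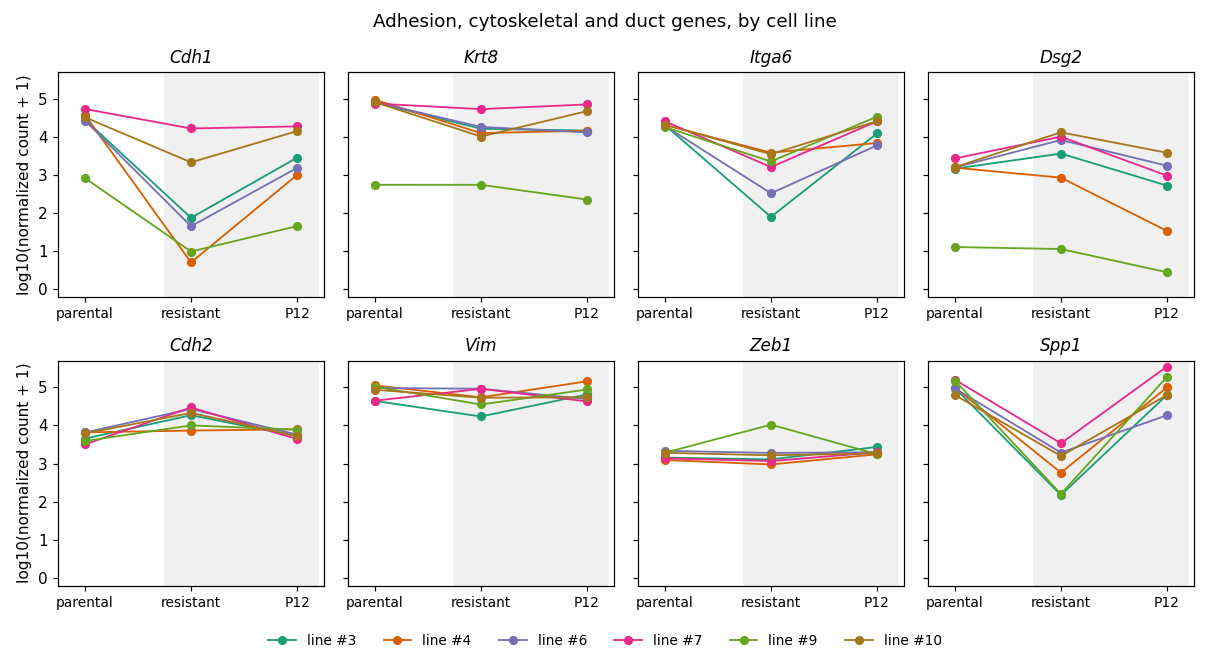
Normalised read counts, as log10(value + 1), of 8 adhesion, cytoskeletal and duct genes in parental, resistant and P12 cells of the 6 lines (1 coloured line each; the shaded area holds the states compared here). Itga6 and Spp1 climb in every line from resistant to P12 without overlap, Cdh1 climbs in every line from widely different resistant levels, and Vim and Zeb1 move in different directions in different lines.

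Secreted signals and their antagonists switched in both directions. Of 34 genes of the TGF-beta and BMP pathways 3 rose and 4 fell, beside 2.52% and 2.00% of all genes. Calls in this list numbered 1 with the 12 libraries alone, 2 without the line term and 2 to 5 with 1 line left out. Grem1, a BMP antagonist, rose from 0 to 17.5 (median 5.39) to 73.6 to 4630.2 (median 2151), by 8.02 ± 1.18 (limma, adjusted p = 0.000652), with no overlap. The ligand Tgfb2 fell from 3532 to 9743 (median 5032) to 14.8 to 1081 (median 511) (-4.43 ± 0.84, limma, adjusted p = 0.00319), whereas Tgfb1 rose from 304 to 1745 (median 795) to 1906 to 3722 (median 2362) (1.61 ± 0.34, limma, adjusted p = 0.00658), each without overlap between states. Follistatin, Fst, an activin antagonist, fell by 4.57 ± 0.99, the receptor Bmpr1b by 3.14 ± 0.59 and the inhibitory Smad6 by 1.84 ± 0.35, while the activin receptor Acvr1b rose by 1.70 ± 0.37. Calls were lost without #4, #6, #9 or #10 (adjusted p up to 0.019) for Tgfb2, #3, #4, #6, #7 or #10 (adjusted p up to 0.0354) for Tgfb1, #3, #4, #7, #9 or #10 (adjusted p up to 0.0416) for Fst, #3, #4 or #7 (adjusted p up to 0.0253) for Bmpr1b, #3, #4 or #7 (adjusted p up to 0.0216) for Smad6 and #3, #6, #7 or #10 (adjusted p up to 0.0488) for Acvr1b.

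Of 41 Wnt and Notch genes 5 rose and 2 fell, beside 2.52% and 2.00% of all genes. With the 12 libraries alone 4 were called. Nrarp, a Notch-induced feedback inhibitor, rose from 1.25 to 109.9 (median 15.2) to 294 to 1509 (median 1023) (5.49 ± 0.73, limma, adjusted p = 0.000288, 0.0130 with 12 libraries). Hey2, another Notch-responsive gene, fell by 3.74 ± 0.74 from low values (0 to 181 to 0 to 3.63), a call that was lost without #3, #4, #6, #7 or #10 (adjusted p up to 0.0263). The Wnt receptor Fzd5 rose from 271 to 1720.3 to 1844 to 5546 (2.50 ± 0.28, limma, adjusted p = 9.12e-05) and Tcf7, a transcription factor of the pathway, from 4.58 to 115 to 183 to 726 (3.00 ± 0.45, limma, adjusted p = 0.000718), neither with overlap. The ligand Wnt9a fell from 47.8 to 4119 (median 1560.2) to 3.07 to 205 (median 11.8) (-5.50 ± 0.72, limma, adjusted p = 0.000261). The inhibitor Dkk2 and the receptor Lgr5 were called at 4.11 ± 0.81 and 3.95 ± 0.86 higher, but the calls were lost without #3, #4, #6 or #7 (adjusted p up to 0.0289) for Dkk2 and #3, #4, #6, #7 or #10 (adjusted p up to 0.0373) for Lgr5.

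Among 29 semaphorins, ephrins and their receptors 2 rose and 2 fell, beside 2.52% and 2.00% of all genes. None was called with the 12 libraries alone. Sema3d fell from 877 to 27187 (median 5403) to 6 to 3482 (median 168) (-4.53 ± 0.67, limma, adjusted p = 0.000667) in 6 of 6 lines, and Sema7a rose by 4.00 ± 0.89 (limma, adjusted p = 0.00858) with the call lost without #3, #4, #7, #9 or #10 (adjusted p up to 0.0538).

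Components and targets of the YAP and TEAD pathway held 5 falls and 1 rise among 27, beside 2.00% and 2.52% of all genes. With the 12 libraries alone there were 4 calls. Gadd45b, a stress-response gene, fell from 2006 to 5333 (median 2685) to 95.8 to 472 (median 190.4) (-3.85 ± 0.37, limma, adjusted p = 3.02e-05). Amotl2, an angiomotin that binds YAP, fell from 5925 to 21795 (median 19231) to 1375 to 5807 (median 3480.3) (-2.12 ± 0.19, limma, adjusted p = 1.89e-05). Lats2, a kinase that inhibits YAP, fell from 1796 to 6671 to 1189.8 to 2018 (-1.56 ± 0.22, limma, adjusted p = 0.000444), all in 6 of 6 lines. The smaller falls of Ajuba (-1.44) and Ptpn14 (-1.06) lost their call whichever of the 6 lines was left out (adjusted p up to 0.0365 for Ajuba and 0.0289 for Ptpn14, limma).

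Calls among detoxifying enzymes were mainly rises. Of 35 genes for NRF2, glutathione and aldehyde defence, 6 rose and 1 fell, beside 2.52% and 2.00% of all genes. The 7 calls became 1 with the 12 libraries alone and 3 to 6 with 1 line left out. Aldh2, the mitochondrial aldehyde dehydrogenase, had nearly the same resistant value in every line (2180.0 to 2857) and 5798 to 16833 in P12 cells (1.90 ± 0.21, limma, adjusted p = 7.56e-05). Mgst2, a microsomal glutathione transferase, rose by 3.28 ± 0.50 (limma, adjusted p = 0.00082). Gsto1, an omega-class transferase, rose by 2.39 ± 0.35 (limma, adjusted p = 0.000672). Both did so in 6 of 6 lines. Aldh1a3, which makes retinoic acid, rose by 3.03 ± 0.54 and Aldh3a1 by 4.50 ± 0.97. Hmox1, haem oxygenase, moved the other way, from 1381 to 6729 (median 2765) to 223 to 1528 (median 636) (-2.10 ± 0.36, limma, adjusted p = 0.00163). Calls were lost without #3 or #7 (adjusted p up to 0.0171) for Aldh1a3, #3, #6, #7, #9 or #10 (adjusted p up to 0.04) for Aldh3a1 and #3 or #7 (adjusted p up to 0.0126) for Hmox1. 

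The efflux pumps that carry many drugs split. Abcg2 fell from 3232 to 7759.6 to 1352 to 2855 (-1.47 ± 0.25, limma, adjusted p = 0.00152, lost without #3 (adjusted p up to 0.0123)). Abcb1a rose by 3.21 ± 0.65 (limma, adjusted p = 0.00513), reaching 2899 and 2199 in lines #7 and #10 but no more than 168 in the other 4. Its call was lost without #4, #6, #7, #9 or #10 (adjusted p up to 0.0262). Among 35 genes of sterol and fatty acid synthesis, the fatty acid elongase Elovl6 rose by 1.45 ± 0.29, a call lost without #3, #6, #7 or #9 (adjusted p up to 0.0205). The median of the list was 0.17. Lysosomal genes leaned lower, 33 of 41 with a negative change (median -0.66) and 3 called lower, beside 2.00% of all genes. Scarb2, a lysosomal membrane receptor, fell by 1.79 ± 0.28, Npc1, which exports cholesterol, by 1.41 ± 0.26 and Lamp1, a membrane glycoprotein, by 1.08 ± 0.16. Npc1 lost its call without #3 or #4 (adjusted p up to 0.0184) and the fall of Lamp1 was below the fold threshold without line #3 or #10. Cathepsin H, Ctsh, rose by 3.22 ± 0.71 and lost its call without #3, #6, #7, #9 or #10 (adjusted p up to 0.0466).

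Among immune genes, calls for antigen presentation were lower and those for secreted factors mixed. Of 17 genes for MHC class I presentation 14 had a negative change (median -1.20) and 2 were called, both lower, beside 2.00% of all genes. The list median was 0.46 in line #6 and negative in the others, and 1 gene was called with the 12 libraries alone. Tapasin, Tapbp, which loads peptides onto class I, fell from 1169.7 to 3519 (median 2907) to 464 to 1151 (median 707) (-1.81 ± 0.27, limma, adjusted p = 0.000736), without overlap. The class I gene H2-D1 fell by 1.16 ± 0.23 (limma, adjusted p = 0.00399), a call lost without #3, #4, #6 or #7 (adjusted p up to 0.0253). H2-D1 has near-identical paralogues, so its counts are uncertain. Of 23 chemokines and cytokines 3 rose and 1 fell, beside 2.52% and 2.00% of all genes. Cx3cl1, fractalkine, rose from 33.2 to 1525 (median 386) to 1475 to 9525 (median 4207) (3.61 ± 0.57, limma, adjusted p = 0.000948) and Cxcl5, a neutrophil attractant, from 0 to 141 to 6.3 to 1289 (3.22 ± 0.44, limma, adjusted p = 0.000382), both in 6 of 6 lines. Csf2, GM-CSF, was at or below the floor in all resistant libraries and at least 13.2-fold higher than it in P12 cells on average (at least 6.38-fold without line #7), mostly from 160.3 in line #7 and 76.6 in line #10, and lost its call without #3, #6 or #10 (adjusted p up to 0.0183). Il18 fell by 3.52 ± 0.71 (limma, adjusted p = 0.00476) and lost its call without #3, #4, #7, #9 or #10 (adjusted p up to 0.0232). Interferon-stimulated genes diverged by line: in line #6, 32 of 43 rose more than 2-fold and none fell so (median 2.23), whereas in lines #7, #9 and #10 between 19 and 21 fell more than 2-fold (medians -0.90, -0.90 and -0.99). Over all lines Mx1, an antiviral GTPase, was the 1 gene called (3.39 ± 0.70, limma, adjusted p = 0.00553), beside 4.52% of all genes. Its call was lost without #3, #6, #9 or #10 (adjusted p up to 0.0339).

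Mitosis and replication genes held no call. None of 40 mitosis genes (median -0.11) and none of 47 replication genes (median -0.09) was called. Mki67 stood at 8568 to 22996 (median 14984) in resistant and 8529.5 to 18499.5 (median 13372) in P12 cells (-0.12, 95% interval -0.60 to 0.35, limma, adjusted p = 0.767). Within lines, though, mitosis genes went both ways: 30 of 40 rose more than 2-fold in line #9 (median 1.22), and 17 fell more than 2-fold in line #7 (median -0.94) and 11 in line #10 (-0.77). Of 16 G1 genes 3 were called, all higher, beside 2.52% of all genes. Apart from Ccnd1, these were the inhibitor genes Cdkn2b (1.57, lost without #3, #4, #6, #7 or #10 (adjusted p up to 0.0443)) and Cdkn2a (1.06), the latter below a change of 1 without line #4 or #6. Cdkn1a was not called (-0.87 ± 0.45, limma, adjusted p = 0.23). Bcl2, which blocks apoptosis, rose from 25.5 to 179 (median 150.3) to 897 to 2514 (median 1264) (3.66 ± 0.33, limma, adjusted p = 1.93e-05), without overlap. Lists without a single call were also ribosome biogenesis (45 genes), the respiratory chain (31), ATF4 amino-acid stress genes (24), DNA methylation machinery (17), S100 proteins (13) and the MYC network (12). With 4.52% of all genes called, a count of 0 in lists of this size is near the background. Dnmt1, Dnmt3a and Dnmt3b, the DNA methyltransferases, had log2 fold changes of -0.05 ± 0.24, -0.51 ± 0.29 and -0.63 ± 0.47, with limma adjusted p values of 0.92, 0.282 and 0.42.

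The 6 lines are set side by side here as a description, since the called genes were chosen by their agreement across these lines. A line had between 2949 (#9) and 4466 (#7) genes more than 2-fold higher and between 2561 (#6) and 3431 (#9) more than 2-fold lower in P12. The median change of the 872 called genes, in their called direction, was 2.17 in line #9 to 2.69 in line #3, and between 2 (#3) and 28 (#9) of them moved against it in a line. Across all 19300 genes the differences of a pair of lines correlated with r of 0.18 to 0.61 (15 pairs, median 0.33); genes are not independent replicates, and these values are given as a description. The ERK feedback genes had a positive median in every line, from 2.58 (#7) to 4.76 (#9). Keratins ran from -2.41 in line #3 to 1.53 in line #10, mesenchymal genes from 1.50 in line #3 to -0.95 in line #10, and gastric-type genes from 0.00 in line #9 to 4.67 in line #10.

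**Figure D5:**
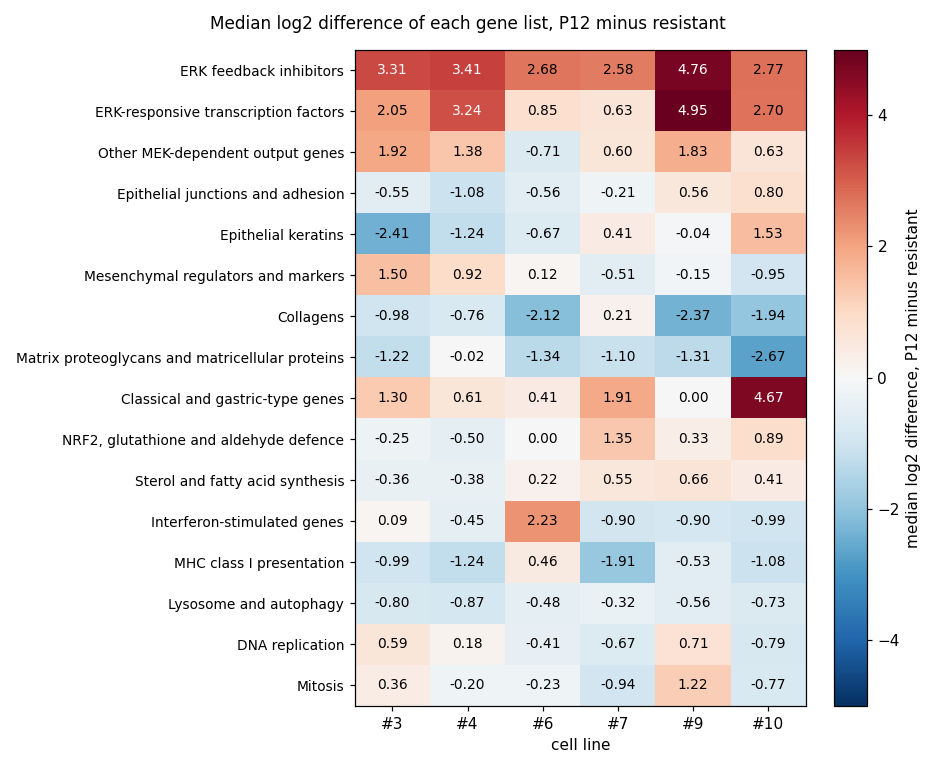
Median log2 difference, P12 minus resistant, of the tested members of 16 gene lists (rows) in each of the 6 cell lines (columns), with the value printed in each cell. The ERK feedback row is positive in all lines (2.58 to 4.76), whereas the keratin and mesenchymal rows run in opposite directions between lines #3 and #10 and interferon-stimulated genes are raised in line #6 (2.23).

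Of genes with a mean of at least 500 counts, those whose differences varied most between lines included Sema5a, a semaphorin, Cxcl15, a chemokine, Muc5ac, a gastric mucin, and Nkain4, a membrane protein that interacts with the sodium pump. Muc5ac went from 0 to 63563 in line #10 and from 6.58 to 2874 in line #7, while P12 values in the other lines were at most 207 (5.71 ± 1.55, limma, adjusted p = 0.0253). Cxcl15 reached 9321 in P12 cells of line #6 from 2.4, but fell from 130.4 to 3.64 in line #9. Sema5a rose in line #9 from 3.74 to 1452 and dropped in line #10 from 1597 to 5.83. Nkain4 dropped from 10485 to 35.1 in line #4 and rose from 5.36 to 276 in line #7. None of the 4 was called, with limma adjusted p values of 0.961, 0.109, 0.0253 and 0.205. The fifth gene by this measure, Gm28437, is a predicted gene whose reads could be shared with mitochondrial sequence, and its values are not interpreted.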

How the data were processed

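RNA-seq of 21 samples was deposited as 1 table of normalised gene counts on mm10. Per the labels and the study's methods, polyadenylated RNA (TruSeq Stranded mRNA) was quantified by Salmon 0.12, and the authors divided gene counts by DESeq2 1.18 size factors, so the deposited values are a normalised signal, not raw counts. The annotation release is not given in the sources used here. Sequencer models were not assigned to libraries and their part cannot be told apart. The test covered 19300 of 34478 genes, namely those reaching 10 in 3 or more samples. limma 3.58.1 (R 4.3.3) with a mean-variance trend was fitted to log2(value + 1) of all 21 samples, with state and line as terms (12 residual degrees of freedom), and Benjamini-Hochberg adjustment over all genes tested. All 21 samples share the estimate of the spread, including 3 P5 samples, of which the #7 and #9 labels conflict on the passage number. Line numbers mark the same cell line, and the resistant and P12 deviations of a line from the group means correlated with r of 0.34 to 0.52. On simulated data, 119 of 200 genes changed by 2 on the log2 scale were recovered among 19300. Reads per library were estimated from the value of 1 read, which fitted 53.6% to 73.7% of low values (within 0.03 of a step), and floors cover counting error only. The comparison and the 44 gene lists were chosen with earlier results of these data known. Genes were named by rule: up to 5 called members per list with the largest change, a fixed set, the 15 largest rises and 15 largest falls (called, the same direction in 6 of 6 lines, mean of at least 100 in the higher state), the 5 genes with the largest spread between lines (mean of at least 500), and genes with 1 sample far from the others. Not all of them are named. Some list members that meet none of these rules are also described, among them Spred1, Phlda1, Aldh2, Fzd5 and Tcf7. Alternatives varied the pseudocount, filter, scaling, line term, samples, trend and thresholds. Gene positions are from GENCODE M21 (GRCm38) and promoters from RefSeq (GRCm38.p6), with Python 3.11.15. Some items are not reported here.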

Additional observations from a re-analysis of the deposited data

Results flagged for a closer look

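Among 137 genes checked in both states (274 groups of 6 libraries), 22 had 1 library far from the other 5 on the log2(value + 1) scale, by a gap above Dixon's 95% critical value. Chance flags about 1 in 20 groups. Of these, 15 lay in resistant and 7 in P12 libraries, and 8 were values of line #9.

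In line #9, resistant cells were highest for Zeb1 (10453 against 945 to 1896), Mgp (729 against 0 to 1.05), Prss22 (40.3 against 6.11 to 12.4) and Mx1 (25.9 against 10.0 to 12.2). They were lowest for Krt8 (544 against 10075 to 52773), Col4a3 (4.41 against 301 to 3028) and Tapbp (1170 against 2644 to 3519). P12 cells of line #9 were lowest for Krt8 (223 against 12951 to 70202). The difference between states for these genes is therefore carried unequally by the lines.

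In line #7, resistant cells were highest for Thrb (84.8 against 0 to 1.74) and Csf2 (2.04 against 0 in the others, below the floor). They were lowest for Sparc (10522 against 99187 to 289234) and Adcy1 (137 against 964 to 2212), and P12 cells were lowest for Dnmt3b (6.68 against 60.8 to 189). In line #3, resistant cells were lowest for Atf3 (179.6 against 951 to 1947), Bcl2 (25.5 against 124 to 179.2) and Il18 (107 against 592 to 1195). P12 cells of line #3 were highest for Zeb1 (2726 against 1747 to 1976) and lowest for Cdkn2b (915 against 2320 to 2867). 

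In line #6, P12 cells were lowest for Prss22 (41.7 against 233 to 597), and values below the floor set apart Egr3 in resistant cells (1.08 against 0) and Rtn1 in P12 cells (0.64 against 0). P12 cells of line #4 were highest for Mmp19, a matrix metalloproteinase (1012 against 145 to 243). The cause was not tested for any of these.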

How the results depend on the processing

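The fit without the replicate block of cell line called 412 genes (248 higher, 164 lower in P12), and 411 of the 872 reported calls were kept. The 12 resistant and P12 samples alone, with the block, called 291 (147 and 144), of which 266 were reported calls. An adjusted p threshold of 0.05 called 1698 (959 and 739). Leaving out 1 line called 395 to 805 in all, 222 to 449 higher and 173 to 356 lower. The other alternatives stayed within 1.5 times of the reported counts. No reported call changed sign under any alternative, which calling the genes on these same samples made likely in advance. Of the reported calls, 126 were kept under all alternatives (71 higher, 55 lower). Scaling to the upper quartile moved the median of all genes from 0.02 to 0.11 and the share of calls higher in P12 from 55.7% to 63.7% (541 higher, 308 lower). The calls among junction and adhesion genes numbered 4, but 1 without the block or with 12 samples, 2 without the P5 samples, 9 at the looser threshold and 1 to 3 without 1 line. Calls in the list of 24 collagens, which leaves out Col4a3 and Col4a4, numbered 1, but 0 without the block, 3 at the looser threshold and 1 to 2 without 1 line. ERK feedback calls numbered 9, with 6 to 10 over all alternatives, and mitosis genes held none under any. Uncalled changes near 0 changed sign in some of the fits without 1 line, where Zeb1 ranged from -0.14 to 0.59, Krt8 from -0.26 to 0.44, Sema5a from -1.44 to 1.78, Mki67 from -0.30 to 0.031 and Dnmt1 from -0.21 to 0.10. Dnmt1 was 0.041 under upper-quartile scaling. The cause of these changes was not tested. Depth limits low values: 48 genes called higher had resistant libraries, and 18 called lower had P12 libraries, all at or below the floor of 3 reads.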
